A study of Mus musculus with 16 samples.

Results

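The question addressed here is whether azacitidine altered gene expression in DNMT3A R882H stem and progenitor cells differently from WT cells. It was answered with a single interaction term per gene, the azacitidine response of R882H cells minus the azacitidine response of WT cells, each response being azacitidine minus NaCl on a log2 scale. All 30141 mouse gene rows of the count data and all 16 libraries of the series were members, because the term needs every group. A positive interaction means a more positive response in R882H cells, and a negative one a more negative response in R882H cells.

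The libraries were made from sorted LSK cells (lineage-negative, Sca-1-positive and Kit-positive bone marrow cells) of transplanted mice. There were 5 libraries of R882H cells after azacitidine, 4 of R882H cells after 0.9% NaCl, 3 of WT cells after azacitidine at the same dose and 4 of WT cells after 0.9% NaCl. R882H cells carried mouse WT DNMT3A plus a human DNMT3A R882H cDNA, placed behind a Lox-Stop-Lox cassette and switched on by Mx1-Cre, a recombinase under an interferon-inducible promoter. WT cells carried only the mouse gene. The knock-in line started from C57BL/6N-derived JM8.N4 embryonic stem cells. Both the Mx-Cre-positive and the Mx-Cre-negative donors were given poly(I:C), 15 µg per g on 3 nonconsecutive days, and another schedule of 400 µg on days 0, 3 and 5 also stands in the labels. All groups therefore share the poly(I:C) exposure of the donors, an agent that itself triggers interferon. Marrow taken 4 weeks later was mixed 1:1 with CD45.1 WT marrow and transplanted into CD45.1 recipients. Azacitidine was given intraperitoneally at 2.5 mg per kg over 2 weeks, with 5 days on, 2 days off and 5 days on. Whether CD45.1 competitor and recipient cells were kept out of the sort, how old the mice were at analysis and whether each library came from a separate animal are not given. The p-values below therefore measure the spread between these libraries, which may in part be technical.

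DNMT3A is a de novo DNA methyltransferase, and R882H is its most frequent hotspot mutation in clonal haematopoiesis and acute myeloid leukaemia. Azacitidine is a cytidine analogue that is built into RNA and, after reduction, into DNA, where it traps DNA methyltransferases so that methylation is lost as cells divide. Loss of methylation can derepress endogenous retroelements, whose double-stranded RNA is detected by cytosolic sensors that switch on interferon-stimulated genes, a chain often called viral mimicry. Stem and early progenitor cells also respond to interferon and to cell loss by leaving quiescence and by shifting their lineage output.

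Depth was 35860445 to 56012766 counts per library, of which repeat families took 2.97 to 10.1%. Markers of the LSK sort were present in all libraries, but unevenly: Kit stood at 409.9 to 1226 CPM (CPM, gene counts scaled by the TMM-normalised library size) and Ly6a, which encodes Sca-1, at 30.6 to 276 CPM. The mean log2 CPM of 6 LSK gate genes was 6.85 in R882H NaCl library 2 and 7.46 to 8.18 in the others. That library also had the lowest Cd34 and Flt3, at 427 and 166 CPM. All 6 gate genes had a positive interaction (median 0.42). Libraries that differed from the rest of their group entered every result below. WT azacitidine library 1 held 10.1% repeat counts and 2645 CPM of the ribosomal RNA gene CT010467.1, R882H NaCl library 1 held 6.81% repeat counts and 1408 CPM of that gene, and the other libraries held at most 492 CPM. R882H NaCl library 1 also held the highest T cell transcripts and R882H NaCl library 2 the highest erythroid transcripts, as described with those genes. R882H azacitidine library 2 held the highest mature neutrophil transcripts. In bulk libraries, more cells of a type and more RNA per cell cannot be told apart.

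Transcripts assigned to Dnmt3a, the altered gene itself, had 95.4, 94.8, 103, 96.8 and 90.8 CPM in R882H azacitidine libraries and 108, 62.9, 91.2 and 100 in R882H NaCl libraries, against 146, 80.2 and 90.01 in WT azacitidine libraries and 106, 97.2, 82.9 and 101 in WT NaCl libraries. The 4 groups overlapped, and the interaction was -0.03 (95% interval -0.60 to 0.53). The gene-level count does not separate the mouse transcript from the human cDNA, so it is no check of genotype.

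No gene passed the test of the interaction. With edgeR's quasi-likelihood test, 0 of 18341 tested genes (0.0%) had a Benjamini-Hochberg adjusted p under 0.05, and the lowest adjusted p was 0.763. At an unadjusted p under 0.05 there were 1114 genes (6.07%), against 917 that 5% of the tested genes would make. They were unevenly split, with 212 positive (1.16% of tested genes) and 902 negative (4.92%), although 46.0% of all tested genes had a positive interaction and the median was -0.05. DESeq2 called 16 of the 15473 genes to which it gave an adjusted p (0.103%). The precision behind these counts was limited: the median SE of an interaction was 0.43 on the log2 scale, against 0.28 for the R882H response and 0.32 for the WT response, and the median 95% interval reached 0.91 to either side. A difference in response under this size was not resolved for most genes.

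The number of genes at an unadjusted p under 0.05 varied with single libraries, while their split was mostly negative in each fit that left out 1 library, with 16.6 to 32.2% positive against 19% with all libraries. Leaving out WT azacitidine library 1 brought them to 381 genes, 29.4% of them positive. Leaving out R882H NaCl library 1 brought them to 581 genes, 32.2% positive, and leaving out WT NaCl library 3 to 614 genes, 19.2% positive. Other single omissions raised the count, to 2122 without R882H NaCl library 4, 1966 without R882H NaCl library 3 and 1759 without WT azacitidine library 3. Without both R882H NaCl library 1 and WT azacitidine library 1, 255 genes were left (1.37% of those then tested), 52.2% of them positive, and without R882H NaCl library 2 as well, 299 genes, 66.6% positive. These libraries are those named above for levels unlike their group, so a list that is high in them moves when they are left out. The last fit keeps only R882H NaCl libraries 3 and 4 and WT azacitidine libraries 2 and 3 of those groups. With all libraries, the positive share was 36% with the library number as a block, 36.6% with a term for the number and 45.3% with limma-voom.

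**Figure D1:**
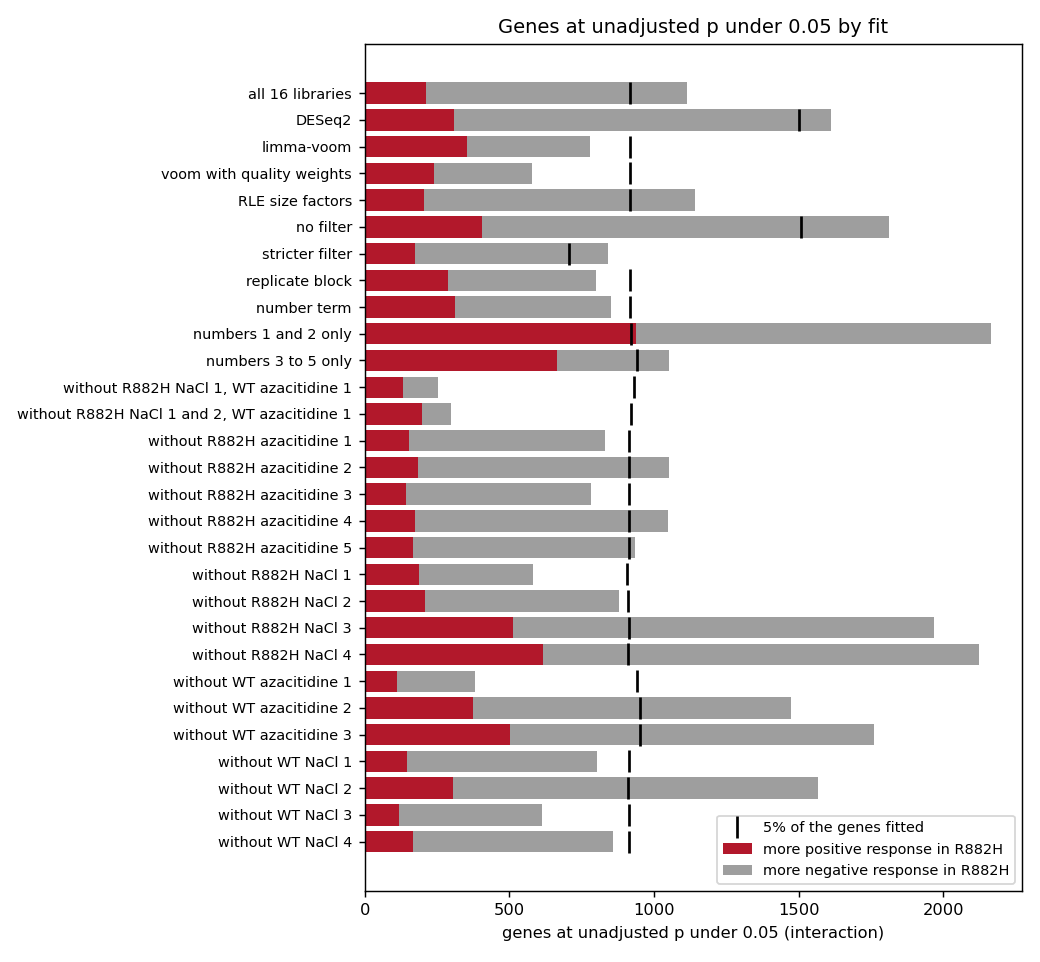
Number of genes at unadjusted p under 0.05 for the interaction (x axis) in each fit (rows), split into genes with a more positive response in R882H cells (red) and a more negative one (grey); black marks stand at 5% of the genes fitted. All 16 libraries gave 1114 genes, and the fit without R882H NaCl library 1 and WT azacitidine library 1 gave 255.

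The gene with the lowest p was Klf9 (ENSMUSG00000033863, chr19:23141226-23168134 in GRCm38, plus strand), a Krüppel-like transcription factor that glucocorticoids induce. Klf9 had 14.6, 14.4, 12.5, 19.1 and 10.8 CPM in R882H azacitidine libraries and 24.9, 34.7, 20.9 and 20.2 in R882H NaCl libraries, against 24.1, 24.1 and 15.6 in WT azacitidine libraries and 12.6, 12.8, 12.4 and 16.6 in WT NaCl libraries. After azacitidine it was lower in R882H cells, where the highest azacitidine library lay under the lowest NaCl library, and it was mostly higher in WT cells, where WT azacitidine library 3 overlapped the NaCl range. The NaCl libraries of Klf9 were higher in R882H than in WT cells without overlap. Its response was -0.82 in R882H cells and 0.65 in WT cells, and its interaction was -1.46 (SE 0.32, unadjusted p = 0.000302). Scaling the R882H NaCl mean CPM by the ratio of the WT means, azacitidine over NaCl, gives 39.4 CPM. The R882H azacitidine mean stood at 14.3 ± 3.1 CPM (SD, n = 5). Klf9 was called by DESeq2 (adjusted p = 0.0144) and not by edgeR (adjusted p = 0.763). In every other alternative the adjusted p of Klf9 was 0.276 or more.

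Gpx3 (ENSMUSG00000018339, chr11:54902453-54910377, plus strand) encodes a secreted glutathione peroxidase. It had 2.92, 2.8, 1.98, 1.88 and 2.47 CPM in R882H azacitidine libraries and 7.29, 2.65, 2.44 and 2.77 in R882H NaCl libraries, against 3.19, 4.22 and 2.67 in WT azacitidine libraries and 1.31, 1.57, 1.34 and 0.984 in WT NaCl libraries. All 3 WT azacitidine libraries lay above all 4 WT NaCl libraries, while the R882H groups overlapped and R882H NaCl library 1 stood apart from its group. The NaCl libraries of Gpx3 were also higher in R882H than in WT cells without overlap. The interaction of Gpx3 was -2.01 (SE 0.49, unadjusted p = 0.000784), with responses of -0.65 in R882H cells and 1.36 in WT cells, and DESeq2 called it too (adjusted p = 0.0484). Without R882H NaCl library 1 its interaction was -1.48 by edgeR, and outside DESeq2 no alternative gave Gpx3 an adjusted p under 0.342.

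Clca3a1, of the calcium-activated chloride channel regulator family, had 13.6, 9.17, 4.68, 7.23 and 8.15 CPM in R882H azacitidine libraries and 26.6, 21.7, 11.7 and 9.87 in R882H NaCl libraries, against 13.4, 8.66 and 7.26 in WT azacitidine libraries and 5.92, 5.76, 3.49 and 3.93 in WT NaCl libraries. Its NaCl libraries were higher in R882H than in WT cells without overlap, its azacitidine libraries overlapped between the genotypes, and the interaction was -2.06 (SE 0.51, unadjusted p = 0.000964). Its DESeq2 adjusted p was 0.0582. The antisense gene Il1bos, which overlaps the interleukin-1 beta locus, was also called by DESeq2 (adjusted p = 0.0484), at 0.576, 0.293, 0.33, 0.385 and 0.296 CPM in R882H azacitidine libraries and 0.384, 1.95, 0.192 and 0.208 in R882H NaCl libraries, against 1.08, 2.41 and 0.205 in WT azacitidine libraries and 0.047, 0.16, 0.101 and 0.0468 in WT NaCl libraries. Its highest libraries were R882H NaCl library 2 and WT azacitidine libraries 1 and 2, and its adjusted p was 0.276 or more in every alternative but DESeq2. Without a stated strand setting its reads cannot be told apart from those of the overlapping gene.

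The other negative interactions with low p, under the same limits on gene type and level as the positive ones, fell into a few kinds. Rnf128, an E3 ubiquitin ligase known for restraining T cell activation, had 38.9 and 23 CPM in R882H NaCl libraries 1 and 2 and at most 1.85 CPM in the other 14 libraries. Cxcr6, a chemokine receptor of T and NK cells, likewise had 34.9 and 8.04 CPM there and at most 1.72 CPM elsewhere. Their interactions were -4.15 and -4.13, and both rest on these NaCl libraries. Cd59b, a complement regulator with a close paralogue that may share its reads, had 4.58, 4.52, 1.6 and 2.31 CPM in R882H NaCl libraries, and its interaction was -1.61. Socs7, of the suppressor of cytokine signalling family, was also highest in R882H NaCl libraries 1 and 2 and WT azacitidine library 1, with an interaction of -1.37.

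Another kind was highest in WT azacitidine library 1. The annotated microRNA gene Mir6236 had 17.9, 1.76 and 1.41 CPM in WT azacitidine libraries and at most 1.71 CPM in WT NaCl libraries, with an interaction of -3.56. Fndc3b, a membrane protein with fibronectin type III domains, had 24.1, 13.5 and 9.93 CPM in WT azacitidine libraries against 4.42, 5.41, 8.1 and 7.7 in WT NaCl libraries, with an interaction of -1.43. Zbtb34, a zinc finger protein, had 27.1, 13.6 and 10.5 CPM against 6.18, 8.08, 7.12 and 9.46 in the same groups, with an interaction of -1.44. This library was the one with the most repeat and ribosomal RNA counts, and the part of that in these values was not tested.

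**Figure D2:**
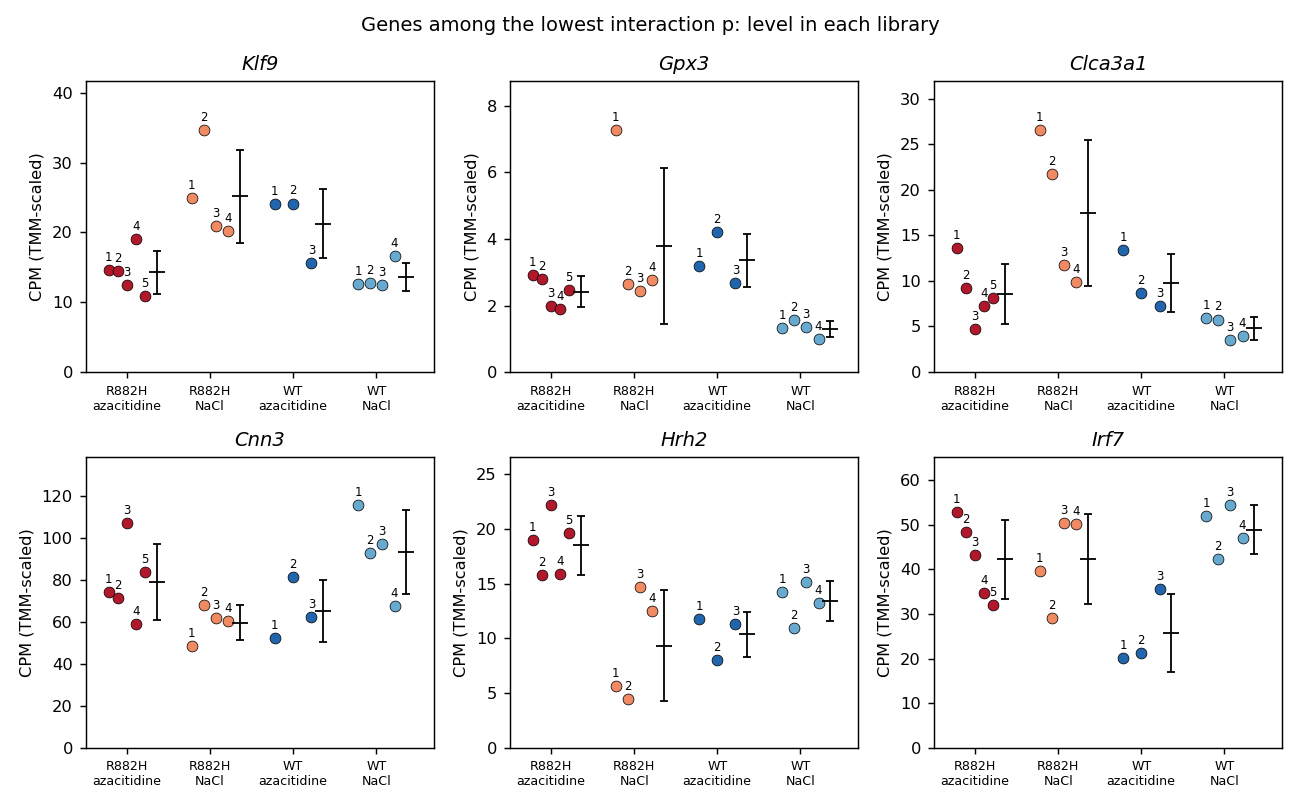
TMM-scaled CPM (y axis, from 0) of 6 genes among the lowest interaction p in their direction, antigen receptor segments aside, in each library (dots, numbered by replicate) of the 4 groups (x axis), with mean and SD as black bars. Klf9, Gpx3 and Clca3a1 were lower relative to their own NaCl group in R882H than in WT cells, and Cnn3, Hrh2 and Irf7 were higher; Gpx3 in R882H NaCl library 1 stood at 7.29 CPM.

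Antigen receptor segments, described with the immunoglobulin genes, held the lowest p among positive interactions. Apart from them, predicted genes and pseudogenes, the 10 positive interactions with the lowest p at a mean log2 CPM of 1 or more were between 0.48 and 1.36. Cnn3 (chr3:121426497-121458207), which encodes the actin-binding protein calponin-3, had 74.1, 71.4, 107, 59 and 83.8 CPM in R882H azacitidine libraries and 48.3, 68, 62 and 60.3 in R882H NaCl libraries, against 52.2, 81.2 and 62.3 in WT azacitidine libraries and 116, 92.7, 97.3 and 67.5 in WT NaCl libraries. The groups of both genotypes overlapped in range. Its responses were 0.41 in R882H cells and -0.52 in WT cells, with an interaction of 0.92 (SE 0.29, unadjusted p = 0.00614). The histamine H2 receptor gene Hrh2 had 19, 15.8, 22.1, 15.9 and 19.6 CPM in R882H azacitidine libraries and 5.64, 4.42, 14.7 and 12.5 in R882H NaCl libraries, against 11.8, 7.98 and 11.3 in WT azacitidine libraries and 14.3, 10.9, 15.1 and 13.2 in WT NaCl libraries, and its interaction was 1.36 (SE 0.45, unadjusted p = 0.00822). Its R882H azacitidine libraries all lay above its R882H NaCl libraries, of which libraries 1 and 2 were the lowest, and the WT groups overlapped. Ada, adenosine deaminase, had 48.7, 49.2, 56.2, 48.9 and 46.5 CPM in R882H azacitidine libraries and 34.8, 28.2, 46.9 and 51 in R882H NaCl libraries, against 25.2, 41.1 and 44.9 in WT azacitidine libraries and 65.3, 43.1, 58.2 and 52.7 in WT NaCl libraries. Its interaction was 0.88 (SE 0.30, unadjusted p = 0.00941), with a WT response of -0.57. WT azacitidine library 1 was its lowest library, and the groups of both genotypes overlapped.

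The villin-like gene Vill had 115, 96, 89.2, 87.7 and 97.3 CPM in R882H azacitidine libraries against 58.8, 40.5, 72 and 74.5 in R882H NaCl libraries, which did not overlap. Its WT values did, at 59.9, 79.95 and 87.2 in azacitidine and 75, 66.8, 101 and 88.4 in NaCl libraries, and the interaction was 0.79. Tmem121, a transmembrane protein, and Evl, an actin regulator of the Ena/VASP family, had interactions of 1.13 and 1.00, and both were lowest in R882H NaCl library 2. The others were Slc10a3, a member of the bile acid transporter family (interaction 0.48), the zinc finger gene Zfp455 (0.91) and Relt, a tumour necrosis factor receptor family member (0.56). In each of these 10 genes, Irf7 among them, the unadjusted p lay between 0.00614 and 0.0133, and the edgeR adjusted p did not pass.

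The interferon cascade can be read in order from sensors to effectors. The range beside each list median is that over the 16 fits that each left out 1 library. Of 18 tested genes of nucleic acid sensing, 16 had a positive interaction (median 0.41, range 0.23 to 0.55), and of 16 genes for interferon receptors and signalling, 12 did (median 0.38, range 0.26 to 0.51). Among 76 interferon-stimulated effectors, 58 had a positive interaction, with a median of 0.30 (range 0.17 to 0.40) beside -0.05 over all tested genes. The median effector response was -0.01 in R882H cells and -0.35 in WT cells, so the positive median went with lower effector levels in WT azacitidine libraries and not with higher levels in R882H azacitidine libraries. None of these genes was called, and at unadjusted p under 0.05 there were 4 positive and 0 negative effectors (5.26% of the list, beside 1.16% positive over all tested genes).

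Irf7 (ENSMUSG00000025498, chr7:141262706-141266481, minus strand), the transcription factor that amplifies type I interferon production, was the sensing gene with the lowest p. It had 53, 48.3, 43.2, 34.8 and 32.1 CPM in R882H azacitidine libraries and 39.6, 29.1, 50.4 and 50.2 in R882H NaCl libraries, against 20.2, 21.2 and 35.7 in WT azacitidine libraries and 52, 42.2, 54.4 and 47.1 in WT NaCl libraries. All 3 WT azacitidine libraries lay under the WT NaCl libraries, while the R882H groups overlapped. Its responses were near 0 (-0.0019) in R882H cells and -0.93 in WT cells, and the interaction was 0.93 (SE 0.32, unadjusted p = 0.0108). Lgals3bp, a secreted glycoprotein induced by interferon, had 377, 297, 343, 350.0 and 310.2 CPM in R882H azacitidine libraries and 230.1, 365, 358 and 382 in R882H NaCl libraries, against 188, 225 and 259.7 in WT azacitidine libraries and 362, 284, 354 and 338 in WT NaCl libraries, with an interaction of 0.58 (SE 0.24, unadjusted p = 0.0251). Its WT groups did not overlap either, with the azacitidine libraries lower.

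Tor3a, an interferon-responsive ATPase of the torsin family, had an interaction of 0.67, and its lowest values were those of R882H NaCl libraries 1 and 2, in a group at 52.5, 53.4, 93.3 and 96.2 CPM. Oas1g, a member of the oligoadenylate synthetase family that activates RNase L, had 6.22, 5.53, 3.22, 3.51 and 3.26 CPM in R882H azacitidine libraries and 2.24, 1.54, 3.42 and 2.77 in R882H NaCl libraries, against 2.69, 1.38 and 4.13 in WT azacitidine libraries and 4.49, 2.43, 4.03 and 3.91 in WT NaCl libraries. Its interaction was 1.24, and its near-identical paralogues may share its reads. Ifit1 and Ifit3, which bind foreign RNA or scaffold antiviral signalling, were chosen after their values were seen. Ifit3 had 3.67, 2.45, 1.39, 1.97 and 1.78 CPM in R882H azacitidine libraries and 6.58, 2.9, 4.09 and 4.77 in R882H NaCl libraries, against 0.432, 0.379 and 1.8 in WT azacitidine libraries and 4.93, 2.4, 5.24 and 5.27 in WT NaCl libraries, with an interaction of 1.33 (95% interval -0.09 to 2.76); its paralogue Ifit3b may share reads. Ifit1 had 4.34, 6.17 and 11.7 CPM in WT azacitidine libraries against 16.7, 13.6, 20.6 and 20.6 in WT NaCl libraries, with an interaction of 1.02 (95% interval -0.13 to 2.16). For both, the lowest libraries were WT azacitidine libraries 1 and 2.

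The effector score, the mean log2 CPM of its 76 genes, was 4.58, 4.53, 4.27, 4.35 and 4.31 in R882H azacitidine libraries and 4.65, 4.01, 4.66 and 4.63 in R882H NaCl libraries. It was 3.77, 3.71 and 4.49 in WT azacitidine libraries and 4.42, 4.18, 4.76 and 4.64 in WT NaCl libraries. WT azacitidine libraries 1 and 2 were the lowest of all 16, and WT azacitidine library 3 lay within the NaCl range. The median interaction of the list was 0.22 without R882H NaCl library 1 and WT azacitidine library 1, 0.08 when R882H NaCl library 2 was left out as well, and -0.10 in libraries numbered 3 to 5 only.

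To show which of these genes carry the element that interferon-activated factors read, promoters were taken from RefSeq (GRCm38.p6, 250 bases before to 50 bases after the start). The letters GAAA, then any 2 bases, then GAAA again, searched on both strands with overlapping matches counted, occurred in 35 of 61 effectors with a listed promoter (57.4%), against 454 of 11631 tested genes (3.9%). Oas1g and Ifit3 are shown as effectors with matches and Irf7 as the factor gene without one in this window. Capitals mark the matches, which in Ifit3 lie on the other strand and read TTTC, any 2 bases and TTTC. The windows are chr5:120887564-120887863 (minus strand), chr19:34583279-34583578 (plus strand) and chr7:141266375-141266674 (minus strand).
Oas1g: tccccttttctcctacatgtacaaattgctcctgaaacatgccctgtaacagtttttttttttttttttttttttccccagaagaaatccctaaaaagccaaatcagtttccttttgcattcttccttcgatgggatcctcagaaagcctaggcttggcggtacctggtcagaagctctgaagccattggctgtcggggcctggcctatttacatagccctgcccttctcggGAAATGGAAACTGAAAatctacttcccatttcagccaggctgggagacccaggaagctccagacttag
Ifit3: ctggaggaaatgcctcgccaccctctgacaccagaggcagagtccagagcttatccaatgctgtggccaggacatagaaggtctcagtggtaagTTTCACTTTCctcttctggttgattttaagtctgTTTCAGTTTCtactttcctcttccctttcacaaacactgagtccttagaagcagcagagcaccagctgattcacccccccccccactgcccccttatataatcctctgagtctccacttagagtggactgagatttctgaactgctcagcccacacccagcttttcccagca
Irf7: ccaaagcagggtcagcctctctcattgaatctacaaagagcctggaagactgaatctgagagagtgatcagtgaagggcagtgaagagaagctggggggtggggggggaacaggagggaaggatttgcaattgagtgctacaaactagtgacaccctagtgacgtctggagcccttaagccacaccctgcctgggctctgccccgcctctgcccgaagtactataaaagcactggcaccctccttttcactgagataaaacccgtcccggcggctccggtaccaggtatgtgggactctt
The matches in Oas1g overlap each other and begin 18 and 12 bases before the start, and those in Ifit3 begin 156 and 122 bases before it. Lgals3bp, whose WT values were lower after azacitidine, holds no match in its own window, so genes with and without these letters are among those described.

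Antigen presentation, a downstream arm of interferon signalling, had 15 of 20 class I genes positive with a median of 0.06 (range 0.00072 to 0.19). All 8 class II genes were positive with a median of 0.51 (range 0.22 to 1.68), and none reached an unadjusted p under 0.05. The class II median was 0.217 without WT azacitidine library 1, 0.238 without WT NaCl library 3, 0.303 without R882H NaCl library 2 and 1.68 without WT azacitidine library 3. In libraries numbered 3 to 5 only it was -0.0061. The NF-kB list had 19 of 26 genes positive (median 0.33, range 0.19 to 0.80). Its gene with the lowest p was Cd83, a maturation marker of dendritic and B cells, at 1.51, 1.52, 0.847, 1.33 and 1.48 CPM in R882H azacitidine libraries and 3.42, 0.308, 1.48 and 1.58 in R882H NaCl libraries, against 0.12, 0.812 and 0.385 in WT azacitidine libraries and 2.54, 0.933, 4.46 and 1.69 in WT NaCl libraries; its interaction was 2.11.

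**Figure D3:**
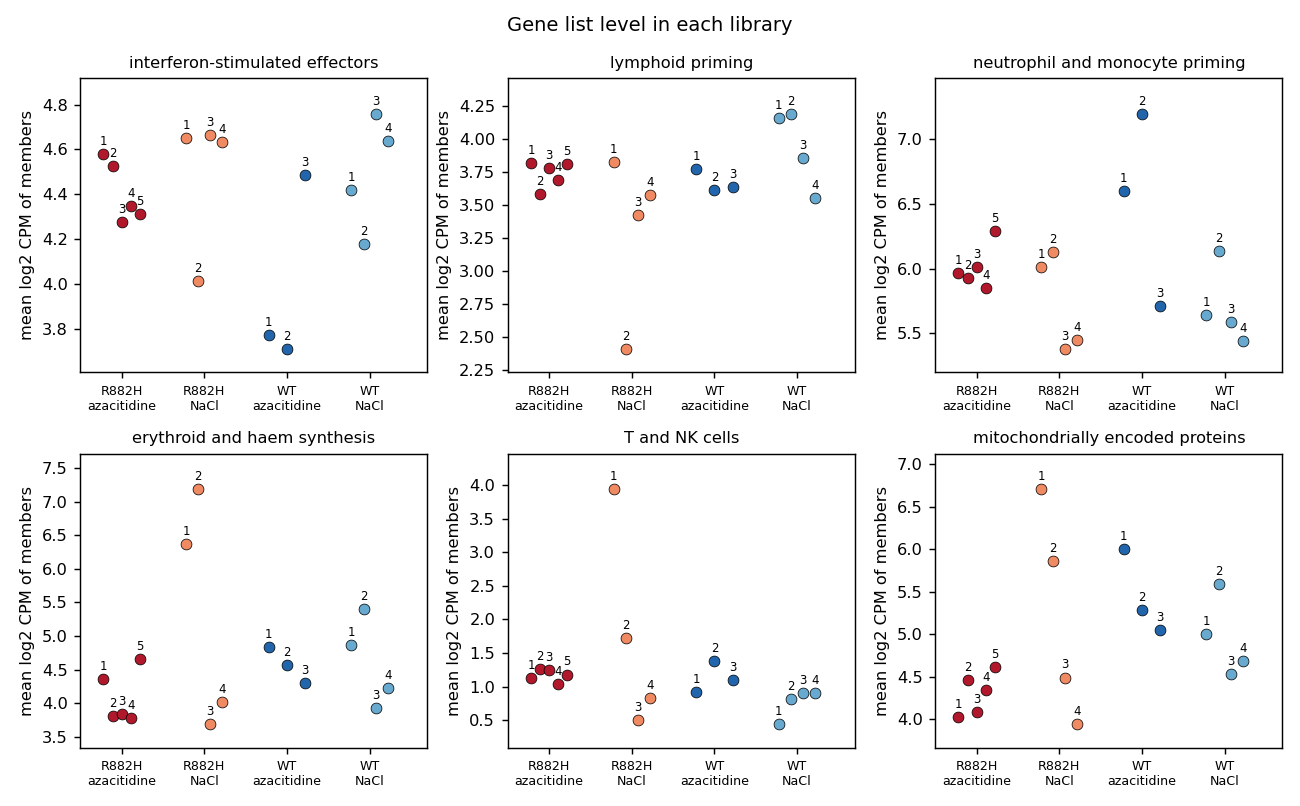
Mean log2 CPM of the tested members of 6 gene lists (y axis, one panel per list, axes not starting at 0) in each library (dots, numbered by replicate) of the 4 groups (x axis). Interferon-stimulated effectors were lowest in WT azacitidine libraries 1 and 2 (3.77 and 3.71), T and NK genes were highest in R882H NaCl library 1 (3.94), and erythroid genes were highest in R882H NaCl library 2 (7.19).

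None of the direct targets of the drug was called. Dnmt1, the maintenance methyltransferase that azacitidine traps, had 379, 189, 337, 401 and 503 CPM in R882H azacitidine libraries and 155, 309, 479.8 and 329.6 in R882H NaCl libraries, against 241, 259 and 274 in WT azacitidine libraries and 284, 229, 444 and 325 in WT NaCl libraries; its interaction was 0.50 (95% interval -0.45 to 1.45). Dnmt3b, the second de novo enzyme, had 131, 121, 136, 128 and 129 CPM in R882H azacitidine libraries against 74.3, 60.3, 143 and 131 in R882H NaCl libraries, with an interaction of 0.60 (95% interval -0.07 to 1.28). R882H NaCl libraries 1 and 2 were its lowest. Of 17 genes of the methylation machinery, 9 were positive and 8 negative, and Tet3, a dioxygenase that starts demethylation, had the lowest p. Tet3 had 25.3, 26.4, 25.4, 37 and 29.8 CPM in R882H azacitidine libraries and 48.9, 41.7, 23.1 and 22.6 in R882H NaCl libraries, against 153, 38.1 and 39.4 in WT azacitidine libraries and 35.4, 48.9, 19.2 and 37.7 in WT NaCl libraries. Its interaction was -1.36 (SE 0.58, unadjusted p = 0.0312), and WT azacitidine library 1 alone stood far above the others.

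Genes for azacitidine uptake and nucleotide metabolism, the kinases and deaminases that activate or degrade the drug, split 9 to 10 with a median of -0.01 (range -0.10 to 0.22). Few genes that are usually derepressed when methylation is lost could be tested: 8 of 18 listed germline genes passed the filter on low counts, 4 in each direction. Of 25 tested imprinted genes, 16 were positive, with a median of 0.12 (range -0.039 to 0.32). The imprinted median was below 0 without WT azacitidine library 2 or WT NaCl library 4. None of the genes of these 3 lists reached an unadjusted p under 0.05.

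EdgeR called no listed gene of DNA damage, division or apoptosis. Cdkn1a, the cyclin-dependent kinase inhibitor p21 and a p53 target, had 19.3, 24.8, 20.7, 18.5 and 23.4 CPM in R882H azacitidine libraries and 16.8, 10.9, 13.2 and 9.53 in R882H NaCl libraries, against 33.1, 44.8 and 25.9 in WT azacitidine libraries and 31.2, 29, 14.9 and 11.2 in WT NaCl libraries. It was on average higher after azacitidine in both genotypes, by 0.76 in R882H cells and 0.68 in WT cells on the log2 scale, and the difference of these responses was 0.08 (95% interval -0.81 to 0.97). The p53 target list split 13 to 10, and its lowest p was that of Zmat3, an RNA-binding p53 target, at 1.85, 1.74, 1.86, 1.67 and 1.75 CPM in R882H azacitidine libraries and 2.75, 4.47, 1.03 and 1.12 in R882H NaCl libraries, against 2.28, 2.17 and 2.0 in WT azacitidine libraries and 1.08, 1.09, 0.962 and 1.15 in WT NaCl libraries. Its WT azacitidine libraries all lay above its WT NaCl libraries, the R882H groups overlapped with R882H NaCl library 2 highest, and the interaction was -1.40 (SE 0.53, unadjusted p = 0.0177).

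In the repair list, 21 of 33 genes were positive, but the genes with a low p were negative: the damage kinase Atm (interaction -0.96) and the DNA-dependent protein kinase gene Prkdc (interaction -0.97). Both were highest in WT azacitidine library 1, where Atm had 47.8 CPM and Prkdc 58.1 CPM, against at most 18.1 and 25.8 CPM in the other WT azacitidine libraries. Replication genes were positive in 20 of 30 (median 0.21, range 0.073 to 0.39), and mitotic genes in 9 of 25 (median -0.19, range -0.34 to 0.18), with none at an unadjusted p under 0.05. The mitotic median was 0.181 without R882H NaCl library 2 and 0.065 without WT azacitidine library 2. The replication median was -0.05 without R882H NaCl library 1 and WT azacitidine library 1. The BCL2 family, which sets the threshold for mitochondrial apoptosis, had 12 of 16 genes negative (median -0.34, range -0.43 to -0.13). Among them Mcl1, an anti-apoptotic member, had 249, 197, 199, 231 and 214 CPM in R882H azacitidine libraries and 200.4, 216, 234 and 189 in R882H NaCl libraries, against 272, 211 and 251 in WT azacitidine libraries and 163, 164, 188 and 199.9 in WT NaCl libraries, and its interaction was -0.40. The pro-apoptotic effector Bak1 (interaction -1.91) was highest in R882H NaCl libraries 1 and 2 and WT azacitidine library 1, and Bok (interaction 1.10), a related effector, was lowest in R882H NaCl libraries 1 and 2. The BCL2 median turned to 0.14 without R882H NaCl libraries 1 and 2 and WT azacitidine library 1, and to 0.06 in libraries numbered 3 to 5 only.

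The lineage lists hold genes that LSK cells begin to express before they commit, and edgeR called none of them. Genes of lymphoid priming were positive in 20 of 24 (median 0.35, range 0.19 to 0.78), with 4 at an unadjusted p under 0.05, all positive (16.7% of the list beside 1.16%). Besides Cnn3, these included Ccr7, the lymph node homing receptor, at 5.8, 5.8, 9.15, 3.21 and 6.54 CPM in R882H azacitidine libraries and 6.43, 1.33, 6.29 and 6.18 in R882H NaCl libraries, against 3.26, 1.79 and 6.01 in WT azacitidine libraries and 8.62, 8.96, 10.03 and 9.09 in WT NaCl libraries. WT azacitidine libraries lay under all WT NaCl libraries, R882H groups overlapped apart from a low R882H NaCl library 2, and its interaction was 1.58 (SE 0.64, unadjusted p = 0.0248). Ebf1, the factor that commits cells to the B lineage, had 1.68, 1.52, 1.88, 0.813 and 0.889 CPM in R882H azacitidine libraries and 0.709, 0, 0.622 and 0.208 in R882H NaCl libraries, against 1.92, 1.3 and 0.693 in WT azacitidine libraries and 6.62, 3.6, 0.734 and 0.562 in WT NaCl libraries; its interaction was 2.96. The highest Ebf1 values were those of WT NaCl libraries 1 and 2. The median of the lymphoid list was 0.192 without R882H NaCl library 2 alone and 0.777 without R882H NaCl library 1 alone. It was 0.80 without R882H NaCl library 1 and WT azacitidine library 1, and 0.55 without R882H NaCl library 2 too.

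Genes of neutrophil and monocyte priming went the other way, with 22 of 28 negative (median -0.71, range -1.02 to -0.33), of which 5 had an unadjusted p under 0.05 (17.9%, beside 4.92% negative over all tested genes). The median response was 0.17 in R882H cells and 0.84 in WT cells. Fcgr3, an activating Fc receptor, had 20.9, 19.8, 17.2, 17.6 and 25.8 CPM in R882H azacitidine libraries and 20.8, 33.8, 9.14 and 8.08 in R882H NaCl libraries, against 32.8, 83.7 and 12.4 in WT azacitidine libraries and 7.91, 15.8, 8.18 and 7.78 in WT NaCl libraries, with an interaction of -1.94 (SE 0.71, unadjusted p = 0.0147). Prtn3, the granule enzyme proteinase 3, had 273, 231, 263, 244 and 293 CPM in R882H azacitidine libraries and 437, 429, 192 and 206 in R882H NaCl libraries, against 820.2, 1122 and 279 in WT azacitidine libraries and 374, 521, 186 and 216 in WT NaCl libraries, with an interaction of -1.47 (SE 0.56, unadjusted p = 0.0189). Igsf6, an immunoglobulin superfamily receptor of myeloid cells, had an interaction of -2.07. In all 3, WT azacitidine library 2 was the highest of the 16 libraries and WT azacitidine library 3 lay near the WT NaCl libraries. Without WT azacitidine library 2 the median of the list was -0.325, and without R882H NaCl libraries 1 and 2 and WT azacitidine library 1 it was -0.17. It turned positive with limma-voom and quality weights (0.04) and in libraries numbered 3 to 5 only (0.55).

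The erythroid and haem synthesis list had 28 of 29 genes negative and a median of -1.93 (range -2.28 to -0.62), with 10 at an unadjusted p under 0.05 (34.5%, beside 4.92% negative over all tested genes). Tfrc, the transferrin receptor that supplies iron, had 40.4, 27, 37.5, 40.02 and 45.9 CPM in R882H azacitidine libraries and 103, 305, 30.4 and 23.3 in R882H NaCl libraries, against 61.7, 29.99 and 42.9 in WT azacitidine libraries and 26, 56.6, 25.2 and 33.7 in WT NaCl libraries. Its R882H NaCl libraries 1 and 2 stood above all others. Slc4a1, the red cell anion exchanger, was at 0 in all R882H azacitidine libraries but library 5, which had 0.346 CPM, against 12.5, 2.08, 0.0958 and 0.583 CPM in R882H NaCl libraries. The beta-globin gene Hbb-bt, whose reads may be shared with its near-identical neighbour, had 58.2, 12.1, 4.55 and 8.41 CPM in R882H NaCl libraries and 28.4, 21.5 and 9.98 in WT azacitidine libraries. The interactions of Tfrc, Slc4a1 and Hbb-bt were -1.94, -6.13 and -2.28. The erythroid master regulator Klf1, chosen after its values were seen, had 217, 777, 23.1 and 14.9 CPM in R882H NaCl libraries, and no library of the other groups passed 89.2 CPM. The list's median was -0.616 without R882H NaCl library 2 alone. It was -1.55 without R882H NaCl library 1 and WT azacitidine library 1, and turned to 0.57 without R882H NaCl library 2 as well. R882H NaCl libraries 1 and 2 held the highest scores of this list, at a mean log2 CPM of 6.37 and 7.19, so their omission raises its median. WT NaCl libraries 1 and 2 were also the highest of their group, at 4.87 and 5.4 against 3.93 and 4.23 in libraries 3 and 4.

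Stem cell identity genes were positive in 17 of 23 (median 0.15, range -0.081 to 0.36). None of the positive genes and 1 of the negative ones had an unadjusted p under 0.05 (4.35% of the list, beside 4.92%). The median was below 0 without R882H azacitidine library 1, R882H NaCl library 2 or WT NaCl library 4, and -0.25 without R882H NaCl libraries 1 and 2 and WT azacitidine library 1. Megakaryocyte and platelet genes had a median of -0.07 (range -0.19 to 0.11) with none at an unadjusted p under 0.05, and it was above 0 without R882H NaCl library 1 or WT azacitidine library 2. In the list of mast cells, basophils and eosinophils, 9 of 14 were negative (median -0.69, range -1.0 to -0.10). The median was -0.102 without WT azacitidine library 2, and 0.21 without R882H NaCl libraries 1 and 2 and WT azacitidine library 1. Its gene with the lowest p was Cd200r3, a receptor of basophils and mast cells, which had 0.853, 1.85, 0.635, 0.856 and 0.445 CPM in R882H azacitidine libraries and 0.472, 0.462, 0.407 and 0.375 in R882H NaCl libraries, against 1.44, 1.49 and 0.898 in WT azacitidine libraries and 0.047, 0.0267, 0.203 and 0.0468 in WT NaCl libraries. After azacitidine it lay above the NaCl range in R882H cells in all but library 5 and in WT cells in every library. Its responses were 1.11 in R882H cells and 3.94 in WT cells on the log2 scale, with an interaction of -2.82 (SE 0.75, unadjusted p = 0.00178). The genotypes differed most in their NaCl libraries, at 0.375 to 0.472 CPM in R882H cells and 0.0267 to 0.203 CPM in WT cells. Il1rl1, the interleukin-33 receptor, was highest in R882H NaCl libraries 1 and 2 (interaction -3.01), and the mast cell protease Cma1 was nearly absent from R882H NaCl libraries, with 5.78, 0, 1.01, 0 and 0.815 CPM in R882H azacitidine libraries (interaction 7.22, on values near 0).

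**Figure D4:**
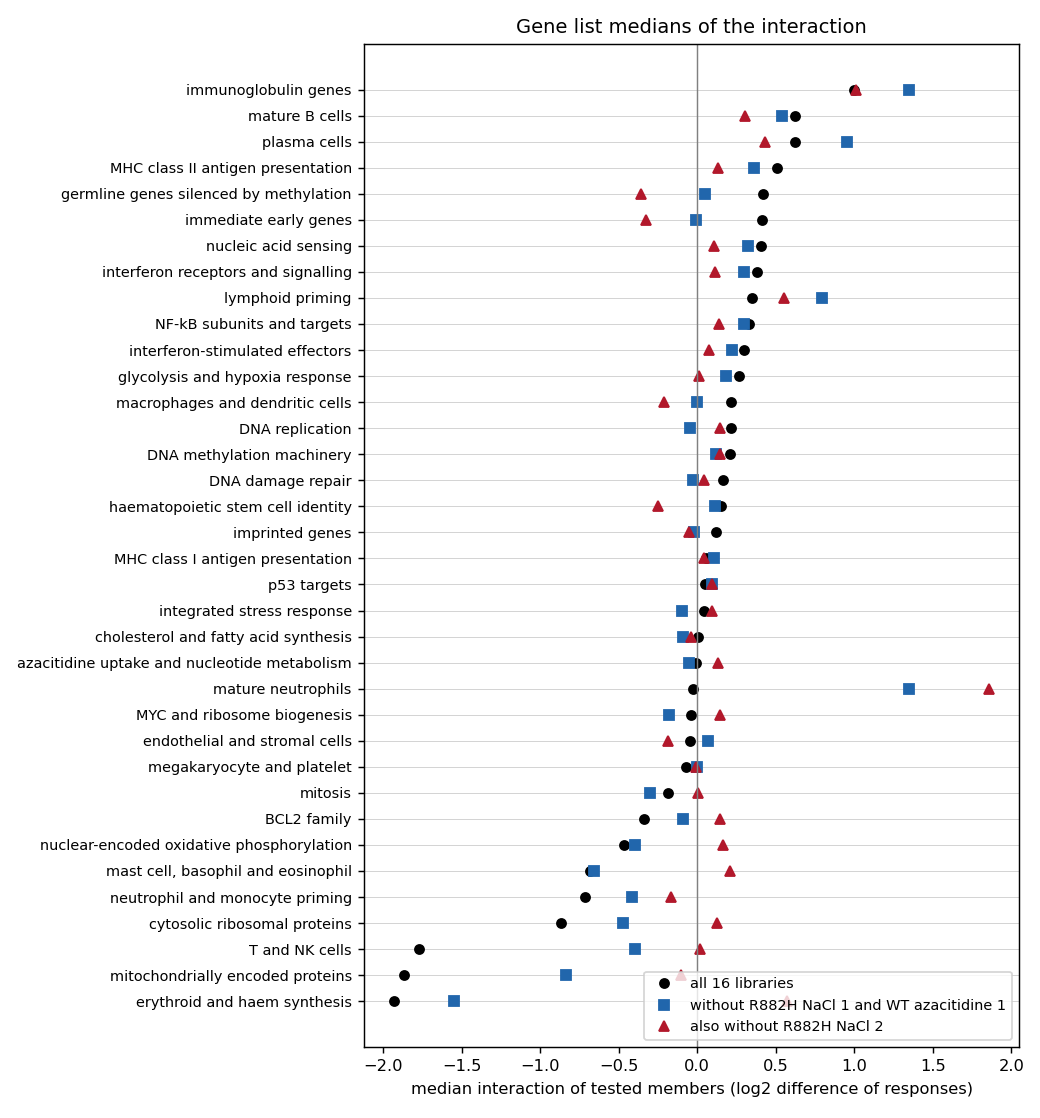
Median interaction of the tested members (x axis, log2 difference between the R882H and the WT azacitidine response) of each gene list (rows), with all 16 libraries (black), without R882H NaCl library 1 and WT azacitidine library 1 (blue), and without R882H NaCl library 2 as well (red). The median of the erythroid list was -1.93, -1.55 and 0.57 in these fits, and that of lymphoid priming 0.35, 0.80 and 0.55.

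Markers of cells that the sort should remove moved with some of these values. Of 28 tested T and NK cell genes, 22 were negative and 13 had an unadjusted p under 0.05 in that direction (46.4%, beside 4.92%), with a median of -1.77 (range -2.09 to -0.43). Trbc2, a constant segment of the T cell receptor beta chain, had 2.32, 3.04, 2.5, 2.67 and 2.59 CPM in R882H azacitidine libraries and 41.4, 4.24, 1.17 and 1.19 in R882H NaCl libraries, against 6.59, 7.28 and 3.7 in WT azacitidine libraries and 1.39, 3.07, 1.37 and 2.11 in WT NaCl libraries. Ccl5, a chemokine of effector T and NK cells, had 39.9, 8.65, 2.44 and 2.77 CPM in R882H NaCl libraries, and Bcl11b, a T lineage factor, 10.5, 2.39, 0.742 and 0.416. The defining markers Cd3d and Cd3e had at most 0.897 CPM in the R882H azacitidine libraries, against 22.3 and 24.2 CPM in R882H NaCl library 1. Cd8b1, the CD8 beta chain, was called by DESeq2 (adjusted p = 0.000859, and 0.403 or more in every other alternative that tested it) on 16 and 1.59 CPM in R882H NaCl libraries 1 and 2 and at most 0.257 CPM elsewhere. The mean log2 CPM of the list was 1.04 to 1.26 in R882H azacitidine libraries and 3.94, 1.72, 0.51 and 0.82 in R882H NaCl libraries, against 0.91 to 1.38 in WT azacitidine libraries and 0.44 to 0.91 in WT NaCl libraries. The part of such cells in the other results was not tested. Without R882H NaCl library 1 alone the list median was -0.435. Without R882H NaCl library 1 and WT azacitidine library 1 it was -0.40, and with R882H NaCl library 2 also left out it was 0.02. R882H NaCl libraries 1 and 2 held the highest scores of this list too, so their omission raises its median.

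Mature B cell genes were positive in 8 of 10 and plasma cell genes in 8 of 8, with medians of 0.62 (range 0.37 to 0.94) and 0.62 (range -0.20 to 1.97) and none at an unadjusted p under 0.05. The plasma cell median was -0.195 without WT NaCl library 3 and 1.97 without WT azacitidine library 3. Mature neutrophil genes split 7 to 7 (median -0.025). Their median was -3.65 without R882H azacitidine library 2 and 1.75 without R882H NaCl library 1. Their score was 4.59 in R882H azacitidine library 2, at most -0.72 in the rest of that group, and 3.56 in WT azacitidine library 3. Macrophage and dendritic cell genes were positive in 12 and negative in 6 (median 0.22, range -0.15 to 0.35). At an unadjusted p under 0.05 there were 0 positive and 3 negative ones (16.7%, beside 4.92%). These were Xcr1, Clec9a and Mrc1 (-2.99, -1.83 and -2.77), on levels of at most 3.57 CPM. The endothelial and stromal list had 2 of 9 genes positive.

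Immunoglobulin genes made 12 of the 16 DESeq2 calls, and their levels were of a particular kind. Immunoglobulin counts took 0.12 to 6.2% of a library's gene counts, and each called variable segment was high in a few libraries and near 0 in the rest. Igkv8-19 had 78.2 and 52.8 CPM in R882H azacitidine libraries 4 and 5, 1039 and 69.7 CPM in WT NaCl libraries 3 and 4, and at most 1.15 CPM in the other 12. Igkv14-100 had 35.4 and 68.2 CPM in R882H azacitidine libraries 3 and 5 and 553 CPM in R882H NaCl library 4, and was 0 in all WT NaCl libraries. Igkv8-28 had 57.1 and 92.7 CPM in R882H azacitidine libraries 1 and 5 and was 0 in all WT azacitidine libraries. Ighv5-6 had 21.1 and 12.5 CPM in R882H azacitidine libraries 4 and 5 and 10.5 CPM in WT NaCl library 4, and was 0 in all WT azacitidine libraries. The remaining calls, Igkv4-50, Igkv6-13, Igkv3-7, Ighv14-1, Ighv1-59, Ighv5-9, Ighv9-1 and Igkv2-109, showed the same patchy pattern. Fitted differences by edgeR against groups with no counts depend on the prior of the model. No fitted difference of a single segment is therefore given in this paragraph, and near-identical segments may share reads. Over all 176 tested immunoglobulin genes, 111 were positive and 25 had an unadjusted p under 0.05 in that direction (14.2%, beside 1.16%). In the negative direction there were 8 (4.55%, beside 4.92%). The list median was 1.0 with all libraries, 0.054 without WT NaCl library 3 and 2.39 without WT azacitidine library 3. Outside the DESeq2 calls the positive genes were led by Ighv2-2. It had 0, 13.2, 17.7, 6.04 and 7.43 CPM in R882H azacitidine libraries and 18.9 CPM in WT NaCl library 3.

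Immediate early genes, which are transcribed within minutes of a stimulus, had 18 of 22 members positive (median 0.41, range 0.0088 to 1.40). The median was 0.0088 without WT azacitidine library 1, 0.027 without WT azacitidine library 2, 1.4 without WT azacitidine library 3 and -1.12 in libraries numbered 3 to 5. The bZIP factor Atf3 was the only one at an unadjusted p under 0.05 (interaction 4.89), on 7.65 CPM in R882H azacitidine library 2 and at most 0.975 CPM elsewhere. Fos, the founding AP-1 subunit, had 376, 534, 190.5, 167 and 74.3 CPM in R882H azacitidine libraries and 1.59, 0.95, 206 and 15.8 in R882H NaCl libraries, against 1.61, 2.03 and 653 in WT azacitidine libraries and 32.8, 9.33, 96.3 and 57 in WT NaCl libraries. Its interaction over all libraries was 0.10 (SE 2.20, unadjusted p = 0.965). The NaCl libraries of R882H cells and the azacitidine libraries of WT cells each held low and high members. In R882H NaCl libraries 1 and 2 and WT azacitidine libraries 1 and 2, Fos was at most 2.03 CPM. Jun, its AP-1 partner, had 508, 551, 331, 338 and 217 CPM in R882H azacitidine libraries and 11, 8.09, 527 and 114 in R882H NaCl libraries, against 3.88, 7.14 and 558 in WT azacitidine libraries and 42.6, 23, 192 and 172 in WT NaCl libraries. The zinc finger factor Egr1 and the phosphatase gene Dusp1 had at least 50.5 and 169 CPM in every R882H azacitidine library, against at most 11.5 and 28.8 CPM in the same low libraries.

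In a fit of the libraries numbered 1 and 2 only, with 2 libraries in each group, these were the only genes called, all positive. Their interactions there were 12.05 for Fos and 8.39 for Jun (both adjusted p = 0.00155), and 5.04 for Egr1 and 5.78 for Dusp1 (both adjusted p = 0.0167). In every other alternative their adjusted p was 0.525 or more. The genes and the split by number were chosen with earlier results of these data known. The calls in libraries 1 and 2 are therefore no independent test. In libraries numbered 3 to 5 the same genes had negative interactions, -2.72 for Fos, -1.75 for Jun, -1.69 for Egr1 and -1.85 for Dusp1, none of them called. Over all 16 libraries the values were 0.10, 0.41, 0.44 and 0.46. What the library numbers stand for is not given in the labels, so handling, time and biology cannot be told apart here.

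**Figure D5:**
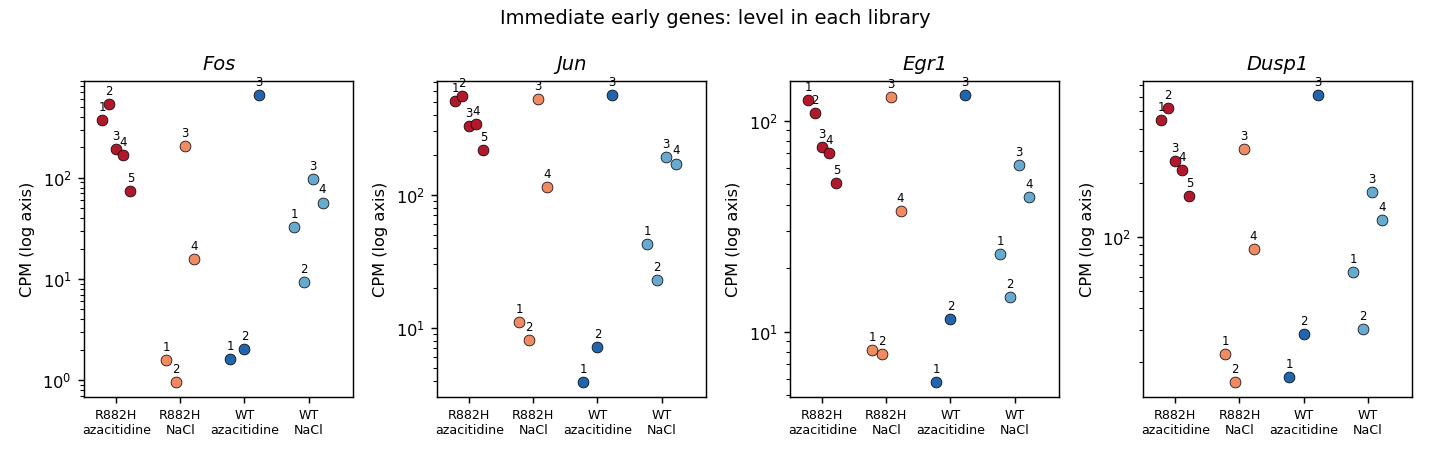
CPM (log axis) of Fos, Jun, Egr1 and Dusp1 in each library (dots, numbered by replicate) of the 4 groups (x axis). Libraries 1 and 2 were high in the R882H azacitidine group, where Fos had 376 and 534 CPM, and low in the R882H NaCl and WT azacitidine groups, where it had at most 2.03 CPM.

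In the integrated stress response, which couples stress sensing to translation and amino acid supply, 15 of 26 genes were positive. Ddit4, an inhibitor of mTORC1, had 18.6, 14.4, 16, 25.6 and 15.2 CPM in R882H azacitidine libraries and 23.1, 16.1, 18.6 and 17.4 in R882H NaCl libraries, against 40.9, 24.1 and 15.2 in WT azacitidine libraries and 12.4, 14.8, 13.5 and 14.6 in WT NaCl libraries, with an interaction of -1.01 (SE 0.37, unadjusted p = 0.0139). Phgdh, the first enzyme of serine synthesis, had an interaction of 0.52, and Atf5, a stress-induced bZIP factor, -1.37. The WT azacitidine libraries of Ddit4 lay above its WT NaCl range, library 3 by the smallest margin.

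Ribosomal protein and mitochondrial transcripts had a single direction in the fit of all libraries. All 82 cytosolic ribosomal protein genes had a negative interaction (54.0% of all tested genes did), with a median of -0.87 (range -1.09 to -0.63). Of these, 21 had an unadjusted p under 0.05 (25.6%, beside 4.92% negative over all tested genes). Rps12 had 41.5, 83.7, 44.5, 60.4 and 61.6 CPM in R882H azacitidine libraries and 184, 153, 49.5 and 37.9 in R882H NaCl libraries, against 181, 144 and 98.1 in WT azacitidine libraries and 92, 129.6, 53.7 and 68 in WT NaCl libraries, with an interaction of -1.58 (SE 0.61, unadjusted p = 0.0203). Rpl37a and Rps27, from the large and the small subunit, had interactions of -1.66 and -1.20. R882H NaCl libraries 1 and 2 were above the rest of their group in each of these genes, and so were WT azacitidine libraries 1 and 2 in theirs. The same held for WT NaCl libraries 1 and 2, where the list score was 8.06 and 8.43, against 7.32 and 7.54 in libraries 3 and 4. The median of the list was -0.47 without R882H NaCl library 1 and WT azacitidine library 1, and 0.13 without R882H NaCl library 2 as well. Genes of MYC and ribosome biogenesis, which supply these subunits, split 14 to 16 with a median of -0.04 (range -0.11 to 0.26); Utp20, a factor of the small subunit processome, had the lowest p (interaction -0.84).

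All 13 mitochondrially encoded protein genes were negative, with a median of -1.87 (range -2.24 to -1.07). Of these, 12 had an unadjusted p under 0.05 (92.3%, beside 4.92% negative over all tested genes). The cytochrome c oxidase subunit gene mt-Co3 had 4.33, 4.87, 3.41, 4.17 and 6.22 CPM in R882H azacitidine libraries and 30.7, 16.1, 6.15 and 3.48 in R882H NaCl libraries, against 22.5, 11.9 and 9.93 in WT azacitidine libraries and 8.5, 13.6, 6.63 and 7.42 in WT NaCl libraries, and its interaction was -2.32 (SE 0.71, unadjusted p = 0.00501). The neighbouring genes mt-Atp6 and mt-Co2, which are cut from the same long transcript, had interactions of -2.10 and -2.43. The gene mt-Nd1 stood at higher levels, 320 to 1859 CPM, and had a smaller interaction of -1.52 (SE 0.65, unadjusted p = 0.0323). The R882H azacitidine group had the lowest mean of mt-Co3, and R882H NaCl library 1 was the highest library. WT NaCl libraries 1 and 2 had list scores of 5.0 and 5.59, against 4.53 and 4.69 in libraries 3 and 4. The list median was -1.07 without R882H NaCl library 1 alone, and -0.84 and -0.10 without the same pair and the same 3 libraries. Nuclear genes of oxidative phosphorylation were negative in 68 of 78 (median -0.47, range -0.63 to -0.19), with Cox6b2, a subunit usually found in testis, at the only unadjusted p under 0.05 (interaction -1.33). The median of this nuclear list was -0.01 with limma-voom and quality weights, -0.08 in libraries numbered 3 to 5 only and 0.16 without the same 3 libraries. Its score was 7.61 and 7.72 in WT NaCl libraries 1 and 2, against 6.91 and 6.92 in libraries 3 and 4. Glycolysis and hypoxia genes were positive in 28 of 33 (median 0.27, range 0.18 to 0.37), led by Pfkl, the liver-type phosphofructokinase, at 421, 381, 431, 395 and 404 CPM in R882H azacitidine libraries and 228, 278, 444 and 428 in R882H NaCl libraries, against 190.1, 336 and 320.0 in WT azacitidine libraries and 425, 289, 440.1 and 382 in WT NaCl libraries; its interaction was 0.68. Without the same 3 libraries the glycolysis median was 0.0084. Cholesterol and fatty acid synthesis genes split 15 to 12 with a median of 0.01 (range -0.059 to 0.076).

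The interaction leaves out equal responses, not every response with a shared direction. The following genes moved in the same direction after azacitidine in both genotypes, as did Cd200r3, whose interaction was larger in size (-2.82). Clec11a, a growth factor for early haematopoietic cells, had 22.2, 22.3, 23.7, 19.2 and 18.9 CPM in R882H azacitidine libraries and 10.01, 9.12, 7.08 and 7.16 in R882H NaCl libraries, against 25.8, 42.8 and 14.4 in WT azacitidine libraries and 11.9, 11.6, 6.74 and 6.96 in WT NaCl libraries. Its azacitidine libraries lay above its NaCl libraries in both genotypes, by 1.35 in R882H cells and 1.57 in WT cells, and the interaction was -0.22 (95% interval -1.07 to 0.64). The transcript 4933406J09Rik, annotated as antisense, had 1.39, 2.76, 3.06, 1.56 and 2.47 CPM in R882H azacitidine libraries and 0.531, 0.257, 0.455 and 0.625 in R882H NaCl libraries, against 3.33, 2.71 and 1.85 in WT azacitidine libraries and 0.305, 0.48, 0.532 and 0.304 in WT NaCl libraries, with responses of 2.26 in R882H cells and 2.69 in WT cells and an interaction of -0.43 (95% interval -1.52 to 0.65). Gm11837, also annotated as antisense, was lower after azacitidine without overlap in both genotypes, at 0.767, 0.897, 0.518, 0.663 and 0.741 CPM in R882H azacitidine libraries and 3.48, 5.01, 2.75 and 3.1 in R882H NaCl libraries, against 0.384, 0.433 and 1.0 in WT azacitidine libraries and 1.69, 1.73, 1.54 and 2.55 in WT NaCl libraries. Its responses were -2.32 and -1.63 in R882H and WT cells, with an interaction of -0.68 (95% interval -1.69 to 0.32). The intervals of these genes include 0 and reach 1.07, 1.52 and 1.69 in size for Clec11a, 4933406J09Rik and Gm11837, so equal responses were not shown.

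A response without overlap in opposite directions in the 2 genotypes was found in 0 genes with higher R882H and lower WT levels after azacitidine, and in 1 of 18341 (0.00545%) with the reverse. That gene was Gm17241, a processed pseudogene, at 0.362, 0.494, 0.377, 0.407 and 0.445 CPM in R882H azacitidine libraries and 1.45, 0.95, 0.527 and 0.562 in R882H NaCl libraries, against 1.87, 1.11 and 0.642 in WT azacitidine libraries and 0.587, 0.56, 0.354 and 0.609 in WT NaCl libraries. Its interaction was -2.24 (SE 0.57, unadjusted p = 0.00119), its levels were at most 1.87 CPM, and its reads may come from its parent gene.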

How the data were processed

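The authors' deposited files hold raw read counts per gene and per repeat family, aligned to GRCm38 (mm10); the submitters' processing notes name HISAT2 2.0.5, featureCounts 1.6.2 and edgeR 3.26.6. The strand setting, the annotation and the handling of reads with several positions are not given in the sources used here. Per the labels' protocols, RNA with a RIN under 8 was left out and the SMARTer Ultra Low kit was used for cDNA, with no molecular identifiers named. Repeat rows (1201) stayed out of library sizes and tests.

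Genes were filtered with filterByExpr on the 4 groups, scaled by TMM and fitted in edgeR 4.0.16 (R 4.3.3) with a coefficient per group and no block. The quasi-likelihood F test was adjusted by the Benjamini-Hochberg method over 18341 genes, at 0.05. The SE is the absolute log2 difference over the square root of F. Scores used a prior count of 2. Symbols and coordinates came from GENCODE M21 (30100 of 30141 identifiers matched). DESeq2 1.42.0, limma 3.58.1 voom, other filters and scalings, a replicate block and omitted libraries were alternatives. The scripts were tested on simulated data.

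Members, lists and tests were chosen with earlier results of these data known, so lists are described by counts and medians only. Named genes were those called by DESeq2, the 10 with the lowest p per direction at a mean log2 CPM of 1 or more (predicted genes, pseudogenes and antigen receptor segments aside), up to 3 per list at an unadjusted p under 0.05, and a few fixed genes. A gene picked by this rule is not reported here. Replicate pairs were checked for duplicates by a chi-square per gene, whose lowest value was 38.4. The spread between libraries of a group, as a biological coefficient of variation, was 40.7%.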

Additional observations from a re-analysis of the deposited data

Results flagged for a closer look

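Of 243 groups of 4 or 5 libraries examined for a library far from the others on the log2 scale, 20 were flagged. The limit would flag about 1 in 20 groups of normally distributed values. These genes were picked from the same data and several groups hold many values at 0, so that rate is no yardstick here. Values are in CPM. In R882H azacitidine libraries, the values apart were Slc10a3 (35.6, library 2, lowest), Cd83 (0.847, library 3, lowest), Slc4a1 (0.346, library 5, highest), Igkv3-7 (0.621, library 4, highest), Igkv2-109 (2.2, library 4, highest) and Ighv2-2 (0 in library 1, lowest). R882H NaCl library 1 stood apart in Gpx3 (7.29, highest), Lgals3bp (230.0, lowest), Cma1 (0.0295, highest) and Igkv6-13 (0.059, highest). R882H NaCl library 2 was the lowest in Ccr7 (1.34), and R882H NaCl library 4 the highest in Igkv14-100 (553). Among WT NaCl libraries, library 4 was the highest in Klf9 (16.6), and library 2 the highest in Fcgr3 (15.8), mt-Co2 (13) and Igkv6-13 (42.4). Library 3 of that group was the highest in Igkv8-28 (0.506) and Ighv2-2 (18.9), and library 1 the lowest in Igkv2-109 (0.0235). Ighv2-2 was also apart in R882H NaCl library 1 (0.148). Most of the immunoglobulin values are near 0 in all but 1 library of a group.

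Gm17241 was noted because every R882H azacitidine library was lower than every R882H NaCl library while every WT azacitidine library was higher than every WT NaCl library. Its interaction was -2.24, with an unadjusted p of 0.00119 and an edgeR adjusted p of 0.763.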

How the results depend on the processing

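No gene was called by edgeR with another scaling, either other filter, limma-voom with or without quality weights, a term for the library numbers, or when any single library was left out. DESeq2 called 16 genes, a fit of libraries numbered 1 and 2 called 4 (Fos, Jun, Egr1 and Dusp1), and a fit of libraries numbered 3 to 5, with a single WT azacitidine library that is assumed to vary like the others, called 2 (Igkv12-46 and Gm42031). The number of genes at an unadjusted p under 0.05, 1114 with all libraries, was 578 with voom quality weights, 1811 without a filter, 2165 in libraries numbered 1 and 2, 255 without R882H NaCl library 1 and WT azacitidine library 1, 299 without R882H NaCl library 2 as well, and 381 to 2122 when single libraries were left out. The lists' medians moved by over 1 SD in 80 of 1064 recomputations.

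The replicate block gave 799 such genes, 36% of them positive, and 0 calls, and a term for the number gave 850, 36.6% positive. Same-numbered libraries did not deviate together throughout: of 21 pairs, correlations ran from -0.124 to 0.344, 9 were over 0.1, and 6 of 15 libraries correlated best with their own number. Among them the 4 pairs of R882H NaCl and WT NaCl libraries all passed 0.1, at 0.101 to 0.342. Since the other pairs of groups did not, the numbers were not taken as pairs. Unlike numbers deviated together too. R882H NaCl libraries 3 and 4 correlated with WT NaCl libraries 3 and 4 at 0.30 to 0.34. Their correlations with WT NaCl libraries 1 and 2 were -0.23 to -0.38. With WT azacitidine library 3, R882H NaCl libraries 1 to 4 stood at -0.07, -0.41, 0.23 and 0.37. R882H azacitidine library 1 was at -0.23 with WT NaCl library 2 and 0.17 with library 4. The source of this sharing was not tested.

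Of 88 named genes with a test, 63 kept their direction in every alternative that tested them and 25 did not; the cause was not tested. All 28 alternatives tested 69 of these genes. In libraries numbered 1 and 2 only the reversed interactions were 0.61 for Igkv4-50, -1.09 for Ighv1-59 and 0.013 for Dnmt3a. In libraries numbered 3 to 5 only the reversed interactions were 0.23 for Cxcr6, 0.23 for Bak1, -0.18 for Bok, 0.59 for Fcgr3, 0.43 for Igsf6, 0.067 for Tfrc, 1.09 for Il1rl1, 0.040 for Trbc2, 0.11 for Ccl5, 0.25 for Xcr1, -0.13 for Atf3, 0.047 for Dnmt3a, -0.12 for Cdkn1a, 0.46 for Clec11a, -0.28 for Ifit1, -1.69 for Egr1, -1.85 for Dusp1, -1.75 for Jun and -2.72 for Fos. Without R882H NaCl libraries 1 and 2 and WT azacitidine library 1 the reversed interactions were 0.21 for Tet3, 0.48 for Bak1, 0.47 for Tfrc, 0.93 for Il1rl1, 0.20 for Rpl37a, 0.18 for Cox6b2, 0.20 for Dnmt3a, -0.97 for Egr1, -0.97 for Dusp1, -1.13 for Jun and -1.48 for Fos. With voom quality weights the reversed interactions were 0.38 for Il1rl1, 0.0050 for Dnmt3a and 0.23 for Clec11a. With limma-voom the reversed interactions were 0.037 for Dnmt3a. With the replicate block the reversed interactions were 0.030 for Dnmt3a. Without R882H NaCl library 1 and WT azacitidine library 1 the reversed interactions were 0.38 for Dnmt3a, -0.45 for Egr1, -0.44 for Dusp1, -0.57 for Jun and -0.90 for Fos. When single libraries were left out, interactions that reversed in any such fit ranged over -7.84 to 4.61 for Igkv14-100, -0.19 to 0.27 for Dnmt3a, -0.16 to 0.31 for Cdkn1a, -0.52 to 0.25 for Clec11a, -0.089 to 2.97 for Egr1, -0.087 to 3.74 for Dusp1, -0.16 to 5.52 for Jun and -0.48 to 7.01 for Fos. The values of Igkv4-50, Ighv1-59 and Igkv14-100, with groups at or near 0, depend on the model's prior. Depth limits the antigen receptor segments, Slc4a1 and Cma1, with libraries at 0.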
